A study of Homo sapiens with 6 samples.

Results

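The ZFP36 family comprises ZFP36 (also called tristetraprolin), ZFP36L1 and ZFP36L2, RNA-binding proteins that shorten the life of messenger RNAs. These 3 genes were chosen, among the 60671 genes counted, by their expression in DMSO against AZD7762, so their own difference between the groups is described here and not tested. All 3 were among the 17649 genes that passed the filter on low counts. Expression was measured by RNA-seq of polyadenylated RNA in EndoC-βH1, a line of human β cells with the genotype WT (wild type). One group of 3 samples received the vehicle DMSO and the other group of 3 samples received 1 µM AZD7762, a small molecule that inhibits the checkpoint kinases CHEK1 and CHEK2. In both groups the cells were starved for 1 h in 0.5 mM glucose and stimulated for 1 h in 0.5 or 20 mM glucose, with DMSO or AZD7762 present throughout. Which of these glucose levels each library was stimulated with is not stated in the labels. The study's methods speak in general of independent replicates for in vitro work, and the labels do not say whether these samples came from separate cultures, so p-values measure only the spread between these samples, which may be technical.

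Proteins of this family carry a pair of zinc fingers of the CCCH type that grip AU-rich elements, stretches of A and U in the 3′ untranslated region (UTR) of many short-lived mRNAs. Once bound, they recruit the CCR4-NOT complex, which removes the poly(A) tail, and the mRNA is then decapped and degraded from the 5′ end or taken apart by the exosome from the 3′ end. ZFP36 is an immediate early gene whose own mRNA holds AU-rich elements, and its protein is held inactive by phosphorylation through the p38 and MAPKAPK2 kinases and binding to 14-3-3 proteins. Among their reported targets are mRNAs of cytokines, growth factors and immediate early transcription factors.

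The zinc fingers show how alike the members are. The stretches below code for the first finger of each protein and lie in exon 2 of the canonical transcript in GRCh37, written 5′ to 3′ on the coding strand, with the codons of the 3 cysteines and the histidine that hold the zinc in capitals. They lie at chr19:39898683-39898742 on the plus strand for ZFP36, at chr14:69256850-69256909 on the minus strand for ZFP36L1 and at chr2:43452409-43452468 on the minus strand for ZFP36L2.
ZFP36 finger 1: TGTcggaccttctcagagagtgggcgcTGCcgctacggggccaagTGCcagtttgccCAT
ZFP36L1 finger 1: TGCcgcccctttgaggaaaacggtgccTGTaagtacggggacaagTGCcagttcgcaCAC
ZFP36L2 finger 1: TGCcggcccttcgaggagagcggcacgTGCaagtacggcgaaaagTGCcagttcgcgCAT
Each member held 2 such fingers with 18 residues between them. Over the 58 codons of both fingers and their linker, ZFP36L1 and ZFP36L2 shared 93.1% of residues and 86.8% of bases. ZFP36 shared 69.0% of residues with ZFP36L1 and 70.7% with ZFP36L2, so it was the most distant of the 3 in this stretch. The coding sequences were 326 codons long in ZFP36, 338 in ZFP36L1 and 494 in ZFP36L2.

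All 3 mRNAs also held, in their own 3′ UTR, the heptamer TATTTAT that members of the family are known to bind. Each UTR carried 3 heptamers, counted on the mRNA strand with overlaps allowed, and 1 copy of the longer nonamer TTATTTATT, which contains the heptamer. The UTR measured 708 bp in ZFP36, 1871 bp in ZFP36L1 and 1917 bp in ZFP36L2. The 30-base window with the most heptamer bases is shown for each, with the heptamer in capitals. The windows lie in exon 2 at chr19:39899828-39899857 for ZFP36, chr14:69255053-69255082 for ZFP36L1 and chr2:43450587-43450616 for ZFP36L2.
ZFP36 3′ UTR: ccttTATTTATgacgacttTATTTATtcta
ZFP36L1 3′ UTR: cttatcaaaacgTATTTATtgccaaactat
ZFP36L2 3′ UTR: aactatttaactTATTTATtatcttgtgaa
ZFP36 held 2 heptamers within this window, whereas ZFP36L1 and ZFP36L2 held 1.

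The libraries held 29402440, 26921225 and 20486391 counts on genes in DMSO replicates 1, 2 and 3, and 25494187, 21441444 and 21503144 in AZD7762 replicates 1, 2 and 3. Levels are given as CPM, the counts of a gene relative to the scaled total of its library, and a count of 3, used as the floor of detection, corresponded to 0.101 to 0.144 CPM. This floor covers counting error only. The cells were checked against markers. All 13 β cell markers, among them INS and PDX1, lay above the floor in every sample, with a summed level of 7674 to 8724 CPM with DMSO and 8188 to 8701 CPM with AZD7762, and CHGA was the most abundant. Of these 13, MAFA, a transcription factor of mature β cells, was called higher with AZD7762 (log2 fold change 1.24, edgeR adjusted p = 0.000133). The other 12 were not called, where 0.708% of all genes tested were called. Without overlap between the groups, PDX1 (log2 fold change 0.094) and NKX6-1 (0.15) lay higher and NEUROD1 (-0.23, adjusted p = 0.182) and SLC30A8 (-0.13) lay lower with AZD7762. Of all genes tested, 15.0% likewise did not overlap between the groups, so such separation by itself does not set these markers apart. Of the acinar markers, PRSS1, CELA3A, CTRB1 and PNLIP were at 0 in every sample, and CPA1 stood at 22.6, 20.9 and 21.9 CPM with DMSO and 27.5, 24.7 and 24.9 CPM with AZD7762, without overlap (log2 fold change 0.24, edgeR adjusted p = 0.308). The T cell marker CD3E was at 0, and the immune markers, led by CD14, summed to 1.71 to 2.62 CPM. Markers of other islet cells, mostly SST, summed to 204 to 228 CPM with DMSO and 244 to 266 CPM with AZD7762, also without overlap between the groups. The part of CPA1 and of these markers in the results was not tested. Duct markers, mostly KRT19, summed to 24.8 to 30.2 CPM, and stromal and endothelial markers, mostly COL1A1, to 11.1 to 16.9 CPM. In bulk samples such as these, fewer cells of a type and less RNA per cell cannot be told apart.

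ZFP36 (ENSG00000128016) lies on the plus strand at chr19:39897487-39900052, with 2 exons and 1 intron in its canonical transcript, and shares no exon with another gene. It was counted 293, 273 and 233 times in the DMSO samples and 785, 611 and 708 times in the AZD7762 samples. Its level was 9.92, 10.0 and 11.2 CPM with DMSO and 31.2, 29.0 and 33.2 CPM with AZD7762. Every sample given AZD7762 lay above every DMSO sample, and the 3 samples of each group lay close together. The mean was 10.4 ± 0.688 CPM with DMSO and 31.1 ± 2.08 CPM with AZD7762 (SD, n = 3 each). The fitted log2 fold change was 1.59 (standard error 0.0868), or 3.01-fold. Mitochondrial genes held 1.57%, 2.13% and 2.12% of counts with DMSO and 2.26%, 2.28% and 2.63% with AZD7762, and their part in this and the other differences was not tested.

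ZFP36L2 (ENSG00000152518), on the minus strand at chr2:43449541-43453745 with 2 exons, was lower with AZD7762. Its counts were 7789, 5932 and 6128 with DMSO and 4504, 4148 and 3798 with AZD7762. The level was 264, 218 and 294 CPM with DMSO and 179, 197 and 178 CPM with AZD7762. The groups did not overlap, although DMSO replicate 2 and AZD7762 replicate 2 lay near each other. The mean was 259 ± 38.0 CPM with DMSO and 185 ± 10.7 CPM with AZD7762 (SD, n = 3 each). The fitted log2 fold change was -0.48 (standard error 0.0928), which left 71.5% of the level with DMSO. An antisense gene, ENSG00000287387, covers 22.4% of the exon length of ZFP36L2. It held between 2 and 12 counts in a sample, at most 0.202% of those of ZFP36L2. Whether counting used strand is not given in the sources used here, so reads from the shared stretch cannot be assigned to either strand.

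ZFP36L1 (ENSG00000185650), on the minus strand at chr14:69254377-69262970 with 2 exons, was the least abundant member. It was counted 71, 94 and 64 times with DMSO and 79, 58 and 65 times with AZD7762. The level was 2.40, 3.46 and 3.07 CPM with DMSO and 3.14, 2.76 and 3.05 CPM with AZD7762. The groups overlapped, and the lowest and the highest of the 6 values were both DMSO samples. The mean was 2.98 ± 0.533 CPM with DMSO and 2.98 ± 0.201 CPM with AZD7762 (SD, n = 3 each). The log2 fold change was 0.012 (standard error 0.167), with a 95% interval from -0.35 to 0.37. Counting error alone gave an exact Poisson interval of 1.88 to 3.03 CPM for DMSO replicate 1, and an overlapping gene not analysed here, ENSG00000289626, covers 7.92% of the exon length.

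**Figure D1:**
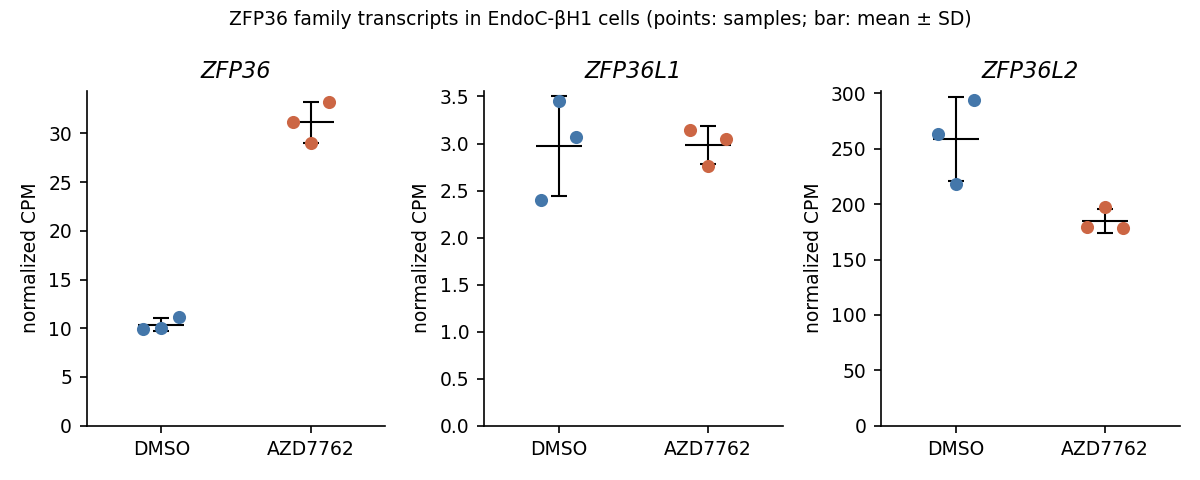
Level of ZFP36, ZFP36L1 and ZFP36L2 in CPM in each of 3 DMSO and 3 AZD7762 samples, with the group mean and SD. ZFP36 lies higher and ZFP36L2 lower in every AZD7762 sample than in any DMSO sample, and the ZFP36L1 groups overlap.

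The filter and test were run over all genes with edgeR's quasi-likelihood test and Benjamini-Hochberg adjustment, in which a gene was called at an adjusted p under 0.05. This called 125 genes, 0.708% of those tested, with 63 higher (0.357%) and 62 lower (0.351%). ZFP36 and ZFP36L2 were among them, and since this contrast chose the members nothing is read from their count of 2 of 3. The groups did not overlap for 2 of the 3 members and for 15.0% of all genes tested, and the same holds for that count. By size of fold change, ZFP36 stood at rank 21 of the 63 genes called higher and ZFP36L2 at rank 40 of the 62 called lower. ZFP36L2 lost its call when DMSO replicate 1 or any 1 of the 3 AZD7762 replicates was left out, with log2 fold changes from -0.60 to -0.38 over all alternatives.

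Levels of different genes were compared per length, as CPM divided by the exon length in kilobases (FPKM). In DMSO samples ZFP36L2 stood at 70.0 ± 10.3 FPKM, ZFP36 at 5.25 ± 0.348 FPKM and ZFP36L1 at 0.460 ± 0.0824 FPKM (SD, n = 3). With AZD7762 they stood at 50.0 ± 2.90, 15.8 ± 1.06 and 0.461 ± 0.0310 FPKM. The order was the same in all 6 samples, and no neighbours in this order came within their spread. ZFP36 moved from percentile 57.5 to 81.5 of the genes tested, ZFP36L2 from 97.4 to 95.3, and ZFP36L1 lay at 14.3 and 14.8.

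The makeup of the family shifted. ZFP36 gave 6.54%, 7.85% and 6.60% of the summed family FPKM with DMSO and 24.4%, 21.5% and 25.7% with AZD7762. ZFP36L2 gave 93.0%, 91.3% and 92.9% with DMSO and 74.9%, 77.9% and 73.6% with AZD7762. In every sample ZFP36L2 remained the main member. The ratio of ZFP36L2 to ZFP36 FPKM was 14.2, 11.6 and 14.1 with DMSO and 3.07, 3.63 and 2.87 with AZD7762, with means of 13.3 ± 1.46 and 3.19 ± 0.395. The summed family level was 75.7 ± 10.5 FPKM with DMSO and 66.3 ± 1.98 FPKM with AZD7762. These FPKM sums overlapped between the groups, since DMSO replicate 2 stood at 64.7 FPKM and AZD7762 replicate 2 at 68.5 FPKM. The sums of CPM, without regard to length, did not overlap, at 276, 232 and 308 CPM with DMSO and 213, 229 and 214 CPM with AZD7762.

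**Figure D2:**
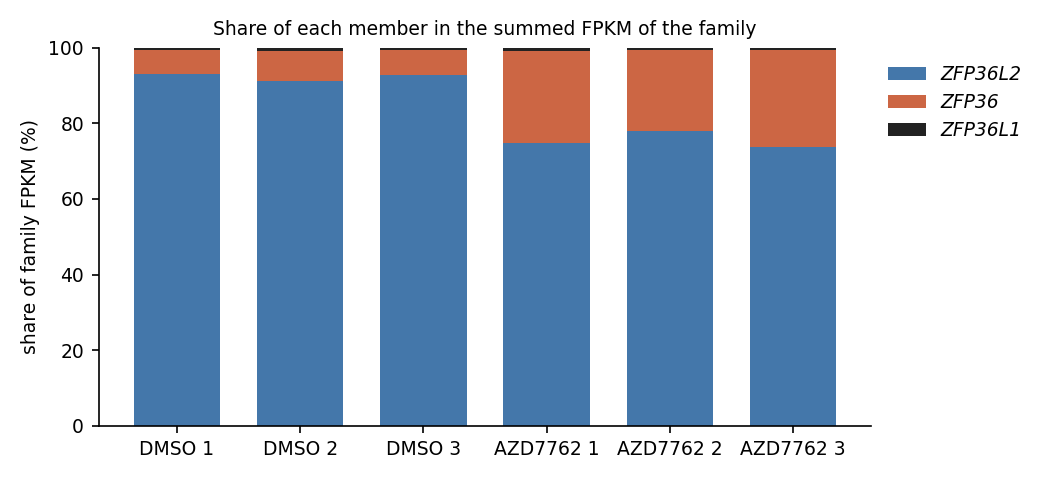
Share of each member in the summed FPKM of the family, in percent, for each of the 3 DMSO and 3 AZD7762 samples. ZFP36 takes 6.54% to 7.85% with DMSO and 21.5% to 25.7% with AZD7762.

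Genes with the pattern most like each member were found by Pearson's r of log2 CPM over the 6 samples among 13904 genes, a description in which the samples share their library scaling and their groups. For ZFP36 they were PLEKHO1 (r = 0.999), SAFB (0.995), the transcription factor KLF4 (0.994), the potassium channel subunit KCNE4 (0.994) and LRRC10B (0.994), with log2 fold changes of 0.23, 0.13, 1.83, 4.60 and 0.73. A high r here follows the step between the groups, whatever its size. For ZFP36L1 they included the RNA helicase DDX27 (0.994), SLC38A11 (0.982), DFFB (0.981) and TMEM150C (0.980), none of which was called. For ZFP36L2 they were PIP4P2 (0.988), RIPK4 (0.985), MEX3B (0.982), BORCS5 (0.982) and PLD6 (0.981), none of which was called. MEX3B, another RNA-binding protein, had a mean of 29.8 ± 6.88 CPM with DMSO and 20.8 ± 1.29 CPM with AZD7762.

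None of the 12 tested genes nearest to the members, 2 on each side of each, was called, which is near the 0.708% of all genes tested. Next to ZFP36, MED29 at 6.21 kb and PLEKHG2 at 3.26 kb had log2 fold changes of 0.12 and -0.0014. Next to ZFP36L2, the noncoding LINC01126 at 0.604 kb had a log2 fold change of -0.64 (edgeR adjusted p = 0.710) at 0.463 CPM with DMSO. Next to ZFP36L1, RAD51B at 57.4 kb and ACTN1 at 77.9 kb had log2 fold changes of 0.084 and 0.12.

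All genes listed here for the machinery that family members recruit passed the filter on low counts and were tested. Of the 16 deadenylation genes, 0 were called in either direction, against 0.708% of all genes, and 1 had an unadjusted p under 0.05 in edgeR's test, against 1708 of the 17649 genes tested. Their median log2 fold change was 0.018, against 0.0076 over all genes tested, and the values ran from -0.11 for PAN3, of the PAN2-PAN3 deadenylase, to 0.19 for CNOT3, a CCR4-NOT subunit with 7.64% of its exon length covered on the opposite strand. The most abundant were PABPC1, the poly(A)-binding protein, at 50.5 FPKM with DMSO, and CNOT1, the scaffold of CCR4-NOT, at 46.8 FPKM. CNOT1 stood at 508 ± 25.1 CPM with DMSO and 533 ± 33.6 CPM with AZD7762.

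For decapping and 5′-to-3′ decay, 0 of 16 genes were called and 2 had an unadjusted p under 0.05, where 0.708% and 1708 of the 17649 genes tested did so. With so few genes called, 0 of 16 is near the background, here and for the deadenylation and exosome genes. The values ran from -0.19 for DCP1A, a cofactor of the decapping enzyme DCP2, to 0.20 for LSM4, of the ring that binds shortened mRNA tails, with a median of 0.037. LSM4 and PATL1 were the most abundant in DMSO samples, at 50.2 and 37.9 FPKM. Of the 16 genes of the exosome and the SKI complex, 0 were called, 2 had an unadjusted p under 0.05, and the median was 0.0096. They ran from -0.13 for DIS3, a catalytic exosome subunit, to 0.29 for EXOSC4. DIS3L and EXOSC10 were the most abundant in DMSO samples, at 17.9 and 14.7 FPKM. Genes on the opposite strand cover 39.1% of the exon length of EXOSC10, 18.2% of EXOSC4, 10.9% of DIS3 and 2.13% of DIS3L.

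Other proteins that bind AU-rich elements or repress translation numbered 21, of which 0 were called higher and 1 lower (4.76%, against 0.708% of all genes tested). The median log2 fold change was -0.029, and 6 genes had an unadjusted p under 0.05, against 1708 of the 17649 genes tested. The called gene was ZC3H12C, a relative of the RNase Regnase-1. It stood at 34.8, 28.95 and 32.97 CPM with DMSO and at 17.1, 22.2 and 22.8 CPM with AZD7762. The groups did not overlap, and the log2 change was -0.64 ± 0.109 (standard error), with an edgeR adjusted p of 0.0127. The adjusted p rose to 0.0744 without DMSO replicate 1 and 0.0723 without AZD7762 replicate 1. ZC3H12A, which encodes Regnase-1 itself, had a log2 fold change of -0.997 at 0.815 CPM with DMSO and 0.400 CPM with AZD7762 (adjusted p = 0.360), and was not called. HNRNPDL and HNRNPD (AUF1), the most abundant in DMSO samples, stood at 68.2 and 52.2 FPKM. ELAVL1 (HuR), which stabilizes AU-rich mRNAs, had a log2 fold change of 0.059.

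Among kinases, a phosphatase and 14-3-3 proteins that act on the family, 21 of 22 genes were tested, 1 was called higher and 0 lower (4.76%, against 0.708% of all genes tested). The median log2 fold change was 0.045. The called gene was DUSP1, a phosphatase that switches off p38 and other MAP kinases. DUSP1 stood at 69.3, 99.8 and 68.7 CPM with DMSO and 281, 243 and 242 CPM with AZD7762. All AZD7762 samples lay above all DMSO samples. The fitted log2 change was 1.69 ± 0.125 (standard error; edgeR adjusted p = 9.58e-06). MAPK14, the main p38 kinase, and MAPKAPK2, which it activates, had log2 fold changes of 0.036 and 0.039. The 14-3-3 genes YWHAQ and YWHAE were the most abundant of the list in DMSO samples, at 492 and 335 FPKM, with log2 fold changes of 0.032 and 0.11. SFN held 0 to 5 counts and was not tested.

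Of 36 reported mRNA targets other than the members, 17 were tested, and 6 (35.3%, against 0.708% of all genes tested) were called, 3 higher and 3 lower. The other 19, mostly cytokines, were too low to test. TNF held 0 to 1 counts, CSF2, IL3, IL10 and CCL3 held 0 counts in every sample, and the highest count, for CXCL2, was 15. Over the 17, the median log2 fold change was -0.17. The list was drawn up with earlier results of these data known, so its count is no independent evidence about the targets.

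The 3 targets called higher were FOS, MYC and DUSP1. FOS, a subunit of the AP-1 transcription factor, stood at 12.7, 11.1 and 9.20 CPM with DMSO and 89.6, 81.2 and 82.1 CPM with AZD7762. The groups lay far apart, and the fitted log2 change was 2.92 ± 0.0994 (standard error), with an edgeR adjusted p of 4.04e-09. MYC, a transcription factor of growth, stood at 2.64, 3.61 and 2.78 CPM with DMSO and 9.70, 8.65 and 11.2 CPM with AZD7762. Its log2 change was 1.70 ± 0.148 (standard error), with an adjusted p of 4.69e-05, and the groups did not overlap. An opposite-strand gene covers 3.18% of its exon length. The values of DUSP1 are given above with the phosphatases.

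The 3 targets called lower were PTGS2, JUN and DLL4. PTGS2, which encodes the prostaglandin enzyme cyclooxygenase-2, stood at 30.3, 26.4 and 24.2 CPM with DMSO and 16.1, 16.6 and 16.6 CPM with AZD7762. The AZD7762 samples lay within a narrow range below all DMSO samples. The log2 change was -0.72 ± 0.0917 (standard error), with an edgeR adjusted p of 0.00137. An opposite-strand gene covers 3.99% of its exon length. JUN, a partner of FOS in AP-1, stood at 203, 203 and 239 CPM with DMSO and 160, 155 and 163 CPM with AZD7762. Its groups did not overlap either, at a log2 change of -0.43 ± 0.0711 (standard error; adjusted p = 0.0102). The JUN call was lost without AZD7762 replicate 1 (adjusted p = 0.115) or AZD7762 replicate 2 (0.0704). DLL4, a Notch ligand, stood at 50.5, 45.4 and 58.1 CPM with DMSO and 38.0, 33.9 and 39.1 CPM with AZD7762. All 3 treated samples lay lower, at a log2 change of -0.47 ± 0.0915 (standard error; adjusted p = 0.0352). The DLL4 call was lost when DMSO replicate 1 was left out (adjusted p = 0.114), and likewise for AZD7762 replicate 1 (0.256) and replicate 2 (0.155). E2F1, the most abundant target in DMSO samples at 61.8 FPKM, had a log2 fold change of 0.0076.

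**Figure D3:**
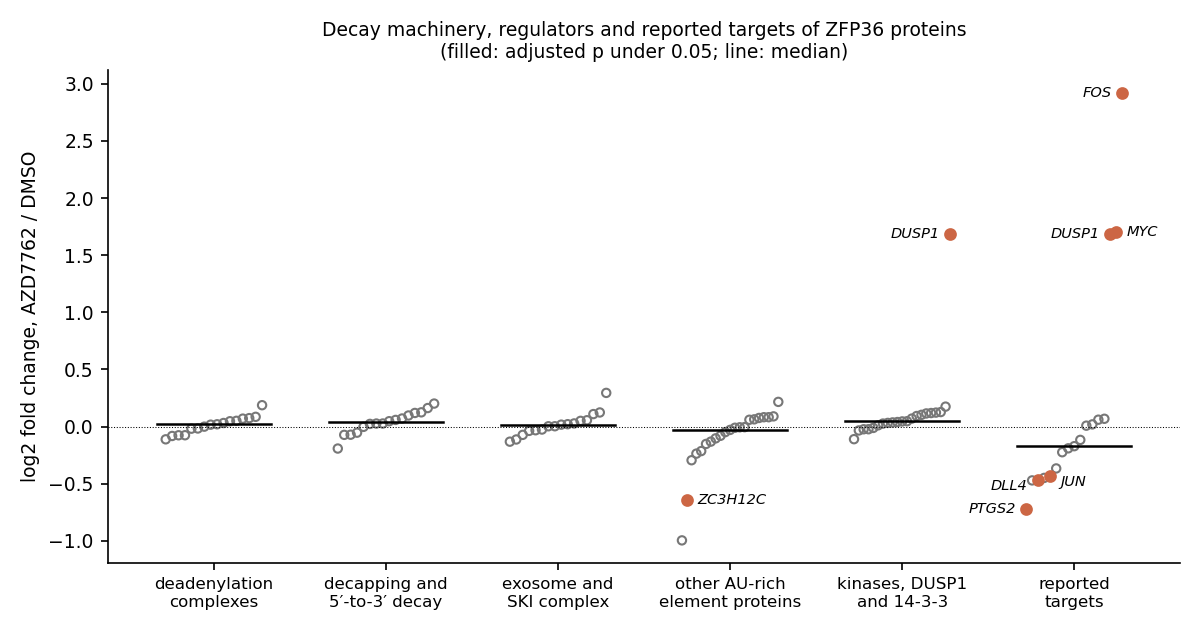
Log2 fold change of AZD7762 over DMSO for every tested gene of 6 lists around the ZFP36 family, with the list median as a line and called genes filled. Of the decay machinery lists 0 genes are filled, and the filled targets lie on both sides of 0.

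The binding sequence was read in 3 of these targets, chosen after their values were seen because 2 rose and 1 fell. The 30-base windows with the most heptamer bases lie in the 3′ UTR at chr14:75748774-75748803 on the plus strand for FOS, chr5:172195646-172195675 on the minus strand for DUSP1 and chr1:186643449-186643478 on the minus strand for PTGS2, in GRCh37 and 5′ to 3′ on the mRNA strand. Capitals mark heptamers, the last of FOS being cut by the end of the window.
FOS 3′ UTR: TATTTATtaagatggattctcagaTATTTA
DUSP1 3′ UTR: agggctggtcctTATTTATttaacttcacc
PTGS2 3′ UTR: aatgatcaTATTTATTTATTTATatgaacc
The full UTR of FOS held 2 heptamers, that of DUSP1 held 3 and that of PTGS2 held 7. Of these, FOS and DUSP1 rose and PTGS2 fell, as the choice of the genes set.

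**Figure D4:**
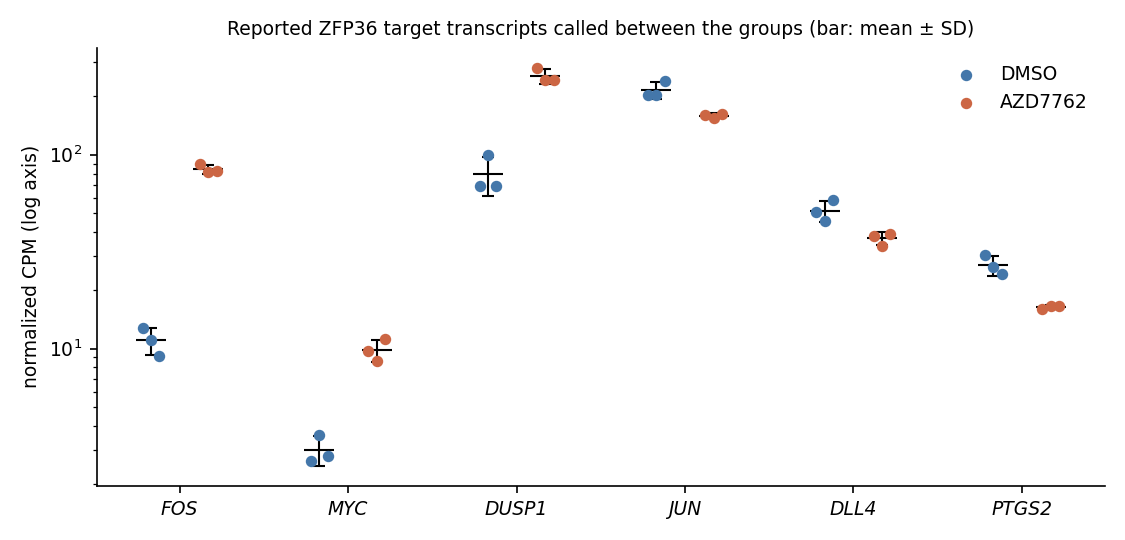
Level in CPM of the called reported targets in each DMSO and AZD7762 sample. FOS, MYC and DUSP1 lie higher and PTGS2, JUN and DLL4 lower with AZD7762, with no overlap between the groups.

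All tested genes were then grouped by the heptamer TATTTAT in their annotated 3′ UTR, members left out. Of 13606 genes with a UTR, 4873 (35.8%) held at least 1 heptamer, and 25 of these were called higher and 42 lower (1.38% called). Among the 8733 without it, 29 were called higher and 19 lower (0.550%). The share called lower was 0.218% with no heptamer, 0.472% with 1, 1.21% with 2 and 1.55% with 3 or more. The share called higher was 0.332%, 0.436%, 0.781% and 0.414%. The median log2 fold change was 0.037 without a heptamer and -0.024 with one, against 0.0076 over all genes tested.

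These shares changed when single libraries were left out, and UTR length ran with the number of heptamers. Without DMSO replicate 1, 26 heptamer genes were called higher and 24 lower, while all genes gave 57 and 39. Without AZD7762 replicate 1 the counts were 24 and 18, and 49 and 28 over all genes. With library totals alone in place of TMM factors, the split was 25 and 58, and over all genes it was 59 and 90 in place of 63 and 62. The median UTR was 848 bp in genes without the heptamer and 4512 bp in those with 3 or more. In 4 bins of UTR length, a grouping chosen after seeing the data, the share called lower was 0.334% with and 0.161% without the heptamer in the shortest bin. It was 0.998% against 0.0769% in the next, 0.748% against 0.571% in the third, and 0.956% against 0.0908% in the longest. The share called higher was also larger with the heptamer in each bin, at 0.334% against 0.193%, 1.12% against 0.577%, 0.612% against 0.363% and 0.261% against 0.0908%. The shortest bin held 1 gene called lower with the heptamer and the longest held 1 without it. Within each bin, genes with the heptamer still had the longer median UTR. It was 330 against 257.5 bp in the shortest bin and 4441 against 3726 bp in the longest. Over all bins, the median level with DMSO was 37.1 CPM with a heptamer and 27.4 CPM without. The part of length and level in these shares was not tested.

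**Figure D5:**
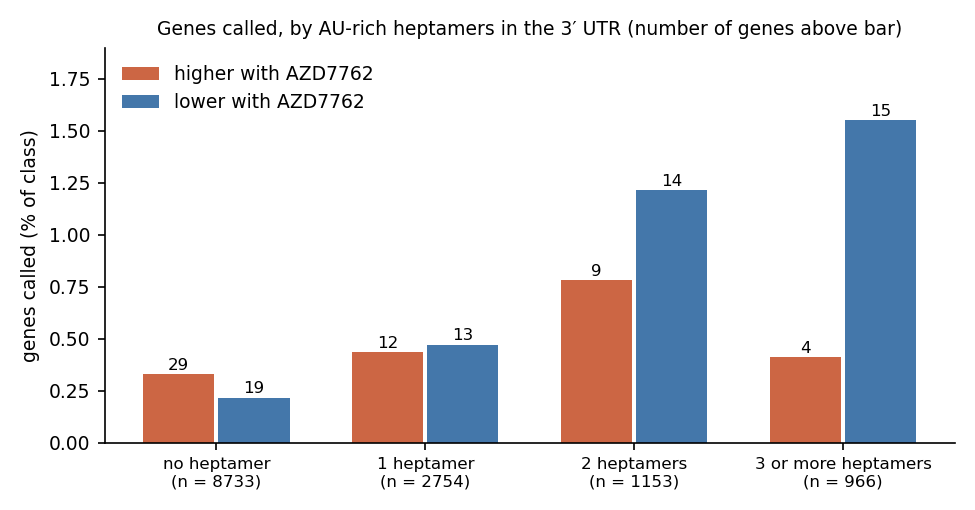
Share of genes called higher and called lower with AZD7762, in percent of each class, by the number of heptamers in the 3′ UTR. The share called lower runs from 0.218% without a heptamer to 1.55% with 3 or more.

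Of 1294 genes with the nonamer, 7 were called higher and 19 lower (2.01% called), and 12312 without it gave 47 and 42 (0.723%). The median UTR was 3146 bp in genes with the nonamer and 1220 bp in those without it. The nonamer split was not computed under the alternatives. Named after their values were seen, the lower ones included MAFF, a small Maf transcription factor (log2 fold change -1.35), DDIT3, the stress factor CHOP (-0.999), DUSP8 (-0.56) and the apoptosis gene PMAIP1 (-0.39), as well as PTGS2 and ZC3H12C. The higher ones were KCNE4 (4.60), FOS (2.92), FOSL2 (1.87), DUSP4 (1.79), DUSP1 (1.69), RGS16 (1.04) and SRF (0.99). Other genes cover 8.03% of the exon length of DDIT3 on the same strand and 31.6% on the opposite strand, and 5.81% of that of MAFF on the opposite strand. A match to the letters is a description and not a measured binding site.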

How the data were processed

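RNA-seq counts of 3 DMSO and 3 AZD7762 samples were analysed, grouped by the treatment in their labels. Per the methods and labels, the authors checked paired 51-base reads with FastQC 0.10.1, trimmed them with cutadapt 1.18, aligned them to GRCh37 and counted them with HTSeq-count. The deposited values are raw counts, without normalization. The libraries were made with either of 2 TruSeq kits, and the kit of each library, the aligner and the strand setting are not given in the sources used here.

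Of the 60671 identifiers, 58646 matched GENCODE release 44 (GRCh37), which gave symbols, exon lengths and 3′ UTRs. Statistics were run in edgeR 4.0.16 and DESeq2 1.42.0 (limma 3.58.1, R 4.3.3). After filterByExpr (17649 genes) and TMM scaling (0.983 to 1.02), edgeR's quasi-likelihood test (two-sided, Benjamini-Hochberg, threshold 0.05) compared the groups with treatment as the only term. FPKM used the union of exons.

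The members and lists were chosen with earlier results of these data known. Genes named were the members, called list genes, the 2 most abundant of each list in DMSO and genes from the 5 most like each member, of which 1 for ZFP36L1 is not named. Other genes, such as those at the ends of a list's range, were chosen after their values were seen. The values of 1 reported target are not reported here. On simulated counts with 200 genes changed by 1 on the log2 scale, 17403 genes were tested, and 86.5% of the changed genes and 14 others were called. Replicates of a group differed by more than sampling noise (chi-square per gene 4.51 to 8.62). Alternatives were other scaling, filters, DESeq2, a replicate block and leaving out each sample.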

Additional observations from a re-analysis of the deposited data

How the results depend on the processing

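Of the 158 values computed under an alternative, 140 were counted as the same. These stayed within 1.5 times the main count or, for the fold changes of the members, moved by less than the spread between replicates. The 140 include counts of the deadenylation, decapping and exosome lists that stayed at 0. They also include fold changes of ZFP36L1 that changed sign within its spread, so the total says little about stability. Genes called numbered 330 without the filter on low counts and 77 to 168 when 1 sample was left out, the lowest without AZD7762 replicate 1. The members called numbered 1 to 2 when 1 sample was left out. The log2 fold change, a description of the contrast that chose the members, ran from 1.54 to 1.65 for ZFP36, from -0.60 to -0.38 for ZFP36L2 and from -0.14 to 0.14, with a change of sign, for ZFP36L1. Of the other AU-rich element proteins, 2 were called without the filter and 2 with DESeq2, the added gene being RC3H2, and 0 to 1 when 1 sample was left out. Genes with the heptamer called numbered 136 without the filter and 42 to 70 when 1 sample was left out, and 26 held the nonamer. With the longest transcript as length, the ratio of ZFP36L2 to ZFP36 FPKM in DMSO was 11.8 in place of 13.3. The limit of 1.5 times was not applied to this ratio, which was counted among the values that moved. The causes were not tested.

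The replicate numbers were not treated as pairing the samples. Deviations of samples with the same number correlated at 0.0491, 0.118 and 0.200. Those of samples with different numbers correlated at -0.103, 0.0476, 0.165, -0.241, -0.211 and -0.0263. These values do not settle whether the samples were paired. With the replicate block, 378 genes were called, among them 1 decapping gene (LSM4), 3 other AU-rich element proteins and 146 genes with the heptamer.

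A count of 3 corresponded to 0.101 to 0.144 CPM, which limits what can be said of the cytokine targets. ZFP36L1, with 58 to 94 counts, was the least precisely measured member.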
